A study of Mus musculus with 19 samples.

Results

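The unfolded protein response and the integrated stress response were followed through 36 listed genes in mouse kidney after 3 days of fasting. The list held 14 genes for protein folding in the endoplasmic reticulum (ER), 7 for ER-associated degradation (ERAD), 10 targets of the transcription factor ATF4, and 5 sensors and transcription factors of both responses. Each gene was read at its brightest single-gene probe set, the one with the highest mean over all 19 arrays among those that name no other gene. This gave 35 of the 36 genes, out of 17097 genes with such a probe set in the table. Mthfd2, a mitochondrial folate enzyme of the ATF4 group, is named only on 2 probe sets that also name Gsn and was not measured.

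RNA from the kidney of each male mouse was hybridised to its own Affymetrix HT MG-430 PM array. The young mice were C57BL/6J, weighed 22 to 25 g and were 10 to 14 weeks old, with 5 kept on food and 4 deprived of it for 3 days. The aged mice were F1 hybrids of FVB and C57BL/6J with a mean age of 73 weeks and a mean weight of 47 g, again with 5 on food and 5 without it for 3 days. The mice on food had free access to it (ad libitum fed). Age, strain and body weight changed together between these sets, so their effects cannot be told apart. All levels are log2 values, on which a difference of 1 is a 2-fold change. The array medians were 4.15 to 4.21 in young and 3.44 to 3.49 in aged kidneys, so levels were compared between diets within an age and never between the ages. Within each group, every pair of arrays had a correlation of at least 0.988 over all probe sets. The tubule genes Umod and Slc12a1 were bright in all 19 arrays (12.40 to 13.21 and 11.25 to 12.42), and the podocyte gene Nphs1 was dim (3.78 to 4.75). Of 6 kidney markers none rose, while Slc5a2, the glucose transporter of the proximal tubule, fell in young (-0.89, adjusted p = 0.000820) and aged kidneys (-1.09, adjusted p = 3.63e-05), and Aqp2, the water channel of the collecting duct, fell in young kidneys (-0.53, adjusted p = 0.0253). In whole kidney, fewer cells of a type and less RNA per cell cannot be told apart.

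Secreted and membrane proteins fold in the ER with the help of chaperones such as BiP (Hspa5), and proteins that fail to fold are taken out and degraded by ERAD. When unfolded proteins accumulate there, the sensor IRE1 splices the Xbp1 RNA. ATF6 and the XBP1 made from the spliced RNA raise transcription of chaperone and ERAD genes, while the kinase PERK phosphorylates eIF2α. Phosphorylated eIF2α lowers general translation and favours translation of ATF4, and the kinase GCN2 does the same when amino acids run short, so the ATF4 targets can respond without ER stress.

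In young kidneys the arms moved in opposite directions. Of the 35 members, 15 fell and 8 rose with fasting at an adjusted p of at most 0.05, while 12 did not pass the test. Among all 17097 genes, 12.5% fell and 10.7% rose. With a fold of at least 1.5 in addition, 7 members fell and 4 rose, against 3.53% and 2.95% of all genes. The ranges of both diets stood apart, with no overlap, for 20 of the 35 members, against 21.3% of all genes. The ER folding group had 10 of 14 members that fell and none that rose, with a median log2 fold change of -0.52. The ERAD group had 5 of 7 that fell and 1 that rose (median -0.32). The ATF4 targets had 7 of 9 that rose and none that fell (median 0.40). None of the 5 sensors and factors passed (median -0.03, with 1 at an unadjusted p below 0.05). The median over all genes was -0.01.

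**Figure D1:**
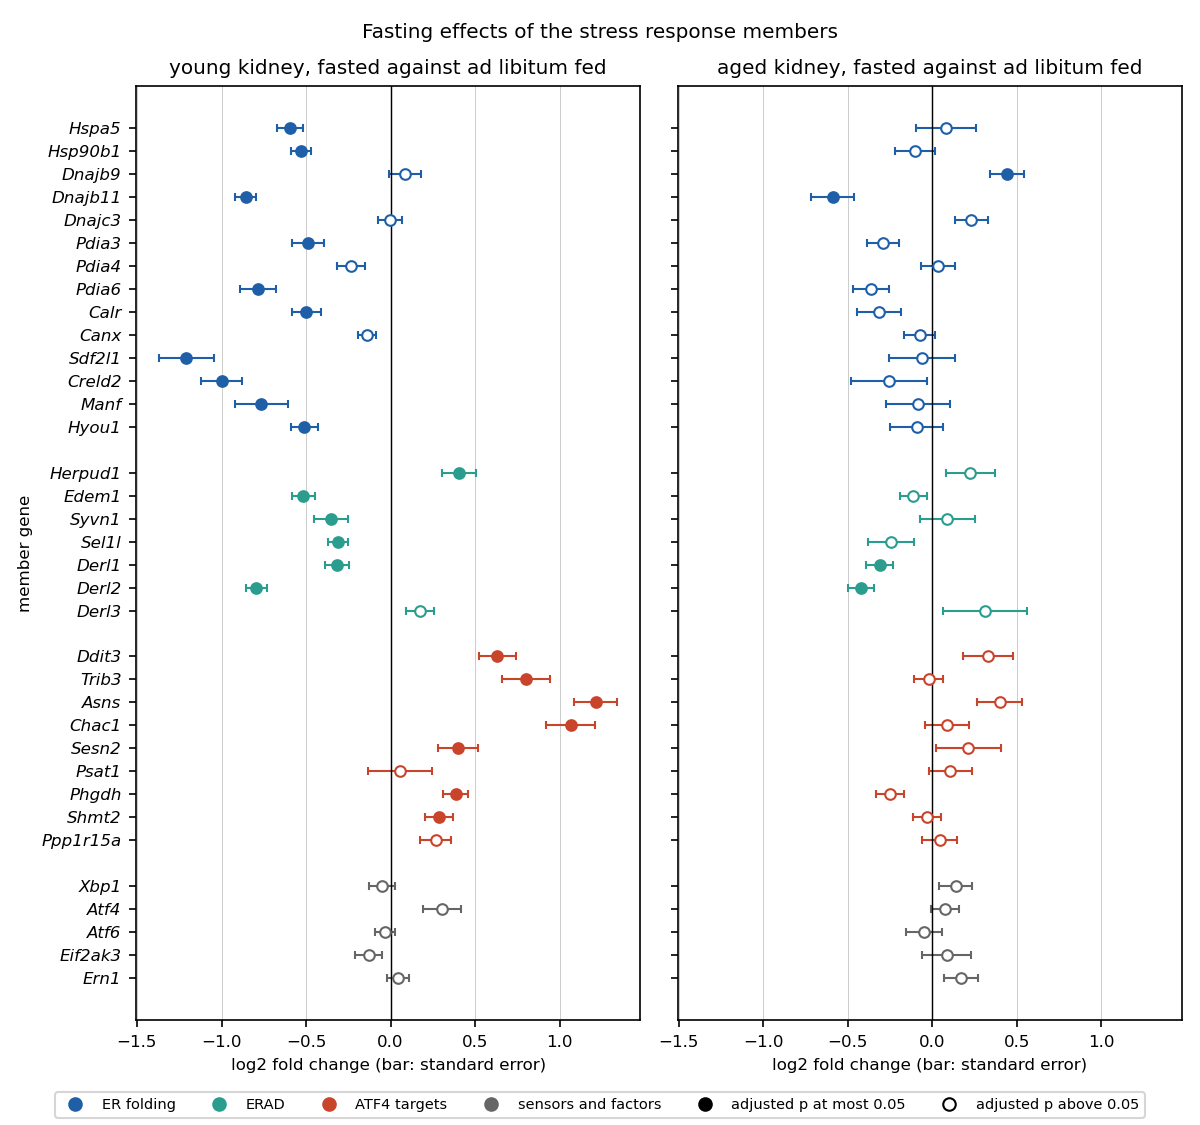
Log2 fold change of each of the 35 measured members in fasted against ad libitum fed kidneys, young (4 fasted and 5 fed mice, left) and aged (5 fasted and 5 fed mice, right), with bars for the standard error from limma. Filled points have an adjusted p of at most 0.05. In young kidneys 13 of the 14 ER folding and 5 of the 7 ERAD points lie left of 0 and all 9 ATF4 targets right of it, while in aged kidneys 4 points are filled.

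The chaperone Hspa5 (BiP), the central Hsp70 of the ER, was at 11.81, 11.64, 11.75, 11.55 and 11.47 in the fed mice and 10.99, 11.01, 11.13 and 11.06 in the fasted mice. All fasted mice lay below all fed mice, and the level was 1.51-fold lower, a log2 fold change of -0.60 ± 0.0756 (SE; adjusted p = 0.000234). Its second probe set fell as well (-0.73, adjusted p = 7.25e-05). Dnajb11 (ERdj3), a cochaperone that hands unfolded clients to BiP, was at 9.39, 9.40, 9.42, 9.29 and 9.25 in the fed mice and 8.60, 8.45, 8.49 and 8.42 in the fasted mice. The groups lay far apart for their spread, with a log2 fold change of -0.86 ± 0.0622 (SE; adjusted p = 5.25e-06), 1.81-fold lower.

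The largest fall among the members was that of Sdf2l1, which works with BiP and its cochaperones against aggregation of clients. Its levels were 7.01, 6.30, 6.77, 6.18 and 6.27 in the fed mice and 5.43, 5.40, 5.10 and 5.27 in the fasted mice. The fed mice spread widely, yet the lowest of them lay above every fasted mouse, and the level was 2.31-fold lower (-1.21 ± 0.161 on the log2 scale, SE; adjusted p = 0.000342). Creld2, an ER-resident protein that acts on disulfide bonds and can be secreted, was at 8.73, 8.50, 8.52, 8.09 and 8.42 in the fed mice and 7.26, 7.43, 7.70 and 7.43 in the fasted mice. Again the groups did not overlap, and the level was 2.00-fold lower (-0.999, adjusted p = 0.000178). Manf, an ER protein released under stress, was at 10.14, 9.57, 9.61, 9.14 and 9.67 in the fed mice and 8.98, 8.78, 8.97 and 8.71 in the fasted mice. Fed mouse346 was the highest and fed mouse349 the lowest of its group, still above all fasted mice (-0.77, adjusted p = 0.00515; 1.70-fold lower).

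Pdia6, a protein disulfide isomerase, was at 10.07, 10.05, 10.17, 9.59 and 10.06 in the fed mice and 9.15, 9.19, 9.32 and 9.15 in the fasted mice. Fed mouse349 was low for its group but above the fasted mice, which were 1.72-fold lower on average (-0.79, adjusted p = 0.000381). The other members that fell by less than 1.5-fold were Hsp90b1 (GRP94, the Hsp90 of the ER; -0.53, adjusted p = 9.42e-05), Hyou1 (a nucleotide exchange factor of BiP; -0.51, adjusted p = 0.00106), Calr (calreticulin, a lectin chaperone; -0.50, adjusted p = 0.00199) and Pdia3 (the isomerase that works with calreticulin; -0.49, adjusted p = 0.00311). The probe set of Pdia3 that names it alone was dim, at 4.07 to 4.47 in fed and 3.63 to 3.89 in fasted mice, near the array medians. The members that did not pass were Pdia4 (-0.23, adjusted p = 0.0765), Canx (calnexin, the membrane-bound lectin chaperone; -0.14, adjusted p = 0.108), Dnajb9 (ERdj4, a cochaperone of BiP; 0.08, adjusted p = 0.636) and Dnajc3 (P58IPK, a cochaperone and inhibitor of PERK; -0.00, adjusted p = 0.984). For Dnajc3, a dimmer probe set fell (-0.39, adjusted p = 0.000335). Pdia4 passed without young fasted mouse344 (adjusted p = 0.0414).

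The promoters of these genes were searched for the elements through which ATF6 and XBP1 are known to act. The windows are RefSeq promoters of build GRCm38.p6, from 250 bases before to 50 after the start of the gene, read on both strands, and 32 of the 36 members have one. The ER stress response element ERSE was searched as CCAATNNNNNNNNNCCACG, ERSE-II as ATTGGNCCACG, the XBP1 element UPRE as TGACGTGG, and the C/EBP-ATF element CARE, to which ATF4 binds, as TGATGNAA. Among all 32851 promoter windows, 0.119% hold ERSE, 0.0365% ERSE-II, 0.676% UPRE and 3.97% CARE. No match of any of the elements in a member overlapped one of another. Of the 12 ER folding members with a window, 7 hold ERSE (Hspa5, Hsp90b1, Dnajc3, Pdia6, Calr, Canx and Creld2) and 1 holds ERSE-II (Dnajb11). Of these 8, Dnajc3 and Canx did not pass the test in young kidneys and the other 6 fell. Sdf2l1 and Pdia3 fell without either element in the window, and Dnajb9 and Pdia4, which did not pass, hold none. Manf and Hyou1 have no window in the table. No ER folding member holds CARE, and no member holds UPRE. A match describes the letters only and not binding. The windows of 3 members that fell are shown 5′ to 3′ on the strand of the gene, with the match in capitals (ERSE in Hspa5 from base -65 to -47 and, on the opposite strand, in Creld2 from -126 to -108; ERSE-II in Dnajb11 from 8 to 18, counted from the start of the gene).
Hspa5 (chr2:34771840-34772139, plus strand): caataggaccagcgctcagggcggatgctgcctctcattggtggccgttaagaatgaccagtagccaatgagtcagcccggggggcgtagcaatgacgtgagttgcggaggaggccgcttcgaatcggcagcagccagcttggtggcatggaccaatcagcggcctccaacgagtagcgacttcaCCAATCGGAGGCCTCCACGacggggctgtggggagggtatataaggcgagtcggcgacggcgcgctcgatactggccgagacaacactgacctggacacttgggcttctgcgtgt
Creld2 (chr15:88819396-88819695, plus strand): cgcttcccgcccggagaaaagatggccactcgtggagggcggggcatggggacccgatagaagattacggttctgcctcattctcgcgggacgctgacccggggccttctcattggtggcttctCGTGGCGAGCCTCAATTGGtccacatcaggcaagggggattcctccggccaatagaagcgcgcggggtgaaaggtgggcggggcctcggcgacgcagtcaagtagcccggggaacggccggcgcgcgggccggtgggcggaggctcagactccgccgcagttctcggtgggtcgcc
Dnajb11 (chr16:22857595-22857894, plus strand): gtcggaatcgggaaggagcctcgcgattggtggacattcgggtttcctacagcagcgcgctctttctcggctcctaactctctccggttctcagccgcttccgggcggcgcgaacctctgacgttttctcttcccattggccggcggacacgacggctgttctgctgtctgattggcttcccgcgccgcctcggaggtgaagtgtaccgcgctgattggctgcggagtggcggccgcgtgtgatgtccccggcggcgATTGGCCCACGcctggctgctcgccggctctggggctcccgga

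Among the ERAD genes, Derl2, a derlin of the channel that moves proteins out of the ER, fell the most. Its levels were 10.17, 10.18, 10.11, 10.10 and 10.08 in the fed mice and 9.39, 9.39, 9.37 and 9.18 in the fasted mice. The fed mice lay close together and all above the fasted mice, which were 1.74-fold lower (-0.80 ± 0.0616, SE; adjusted p = 7.82e-06). A second, dimmer probe set of Derl2 did not pass (0.12, adjusted p = 0.324). Edem1, which hands misfolded glycoproteins to ERAD, fell (-0.52, adjusted p = 0.000384). So did the ubiquitin ligase Syvn1 (HRD1; -0.35, adjusted p = 0.0313), its adaptor Sel1l (-0.31, adjusted p = 0.00404) and the derlin Derl1 (-0.32, adjusted p = 0.00847). The call for Syvn1 was lost when any 1 of 6 arrays was left out (fed mouse346, mouse347 and mouse348 and fasted mouse339, mouse340 and mouse343; adjusted p = 0.0543 to 0.0884). Derl3, at 3.65 to 3.93 in fed and 3.84 to 4.16 in fasted mice, did not pass (0.18, adjusted p = 0.180).

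Herpud1, an ERAD component that links the ubiquitin ligase to other parts of the machinery, was the ERAD member that rose. It was at 9.80 to 10.20 in fed and 10.14 to 10.51 in fasted mice, so that the highest fed mouse lay within the fasted range, with a log2 fold change of 0.41 ± 0.100 (SE; adjusted p = 0.0145). A second probe set rose too (0.46, adjusted p = 0.00921). At the brightest probe set the call was lost with the ordinary test without moderation (adjusted p = 0.0586). It was also lost, just above the threshold, in 1 limma fit to all 19 arrays (adjusted p = 0.05 after rounding). Among the 32 members with a promoter window, Herpud1 is the only one that holds both an ER element and CARE, with ERSE-II at -52 to -42 and CARE on the opposite strand at -112 to -105. A link between either match and the rise of Herpud1 was not tested. Of the other ERAD members with a window, Syvn1 and Derl3 hold ERSE. The window of Herpud1 is shown with both matches in capitals.
Herpud1 (chr8:94386179-94386478, plus strand): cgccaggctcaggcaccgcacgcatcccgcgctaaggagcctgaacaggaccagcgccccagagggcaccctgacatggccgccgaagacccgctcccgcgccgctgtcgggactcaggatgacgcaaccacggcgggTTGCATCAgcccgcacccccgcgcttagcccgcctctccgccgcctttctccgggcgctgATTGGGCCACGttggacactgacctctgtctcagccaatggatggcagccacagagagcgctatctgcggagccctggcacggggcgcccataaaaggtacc

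Of the 9 measured ATF4 targets, 7 rose in young kidneys. Asns, asparagine synthetase and a standard target of ATF4, was at 5.64, 6.16, 6.03, 5.56 and 5.73 in the fed mice and 7.02, 7.07, 6.82 and 7.24 in the fasted mice. Every fasted mouse exceeded every fed mouse, and the level was 2.32-fold higher, a log2 fold change of 1.21 ± 0.129 (SE; adjusted p = 7.07e-05). Chac1, which breaks down glutathione, was at 3.93, 3.83, 4.14, 3.76 and 3.79 in the fed mice and 4.98, 4.70, 4.69 and 5.46 in the fasted mice. The groups did not overlap and fasted mouse344 was the highest (2.09-fold higher; 1.07, adjusted p = 0.000417). Trib3, a pseudokinase that restrains ATF4 and AKT, was at 4.08, 3.78, 4.02, 3.48 and 4.01 in the fed mice and 4.51, 4.80, 4.40 and 4.99 in the fasted mice. It was 1.74-fold higher with no overlap (0.80, adjusted p = 0.00234). In fed mice Chac1 and Trib3 lay below the array medians.

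Ddit3 (CHOP), the transcription factor that links prolonged stress to cell death, was at 6.20, 6.37, 6.74, 6.48 and 6.74 in the fed mice and 7.04, 7.16, 7.23 and 7.12 in the fasted mice. It was 1.55-fold higher without overlap (0.63, adjusted p = 0.00179). Smaller rises were measured for Sesn2, an inhibitor of mTORC1 (0.40, adjusted p = 0.0362), for Phgdh, which opens the serine pathway (0.38, adjusted p = 0.00339), and for Shmt2, which makes glycine from serine in mitochondria (0.29, adjusted p = 0.0323). The probe set of Phgdh is of the kind that can bind related transcripts, and a second, dimmer one did not pass (0.27, adjusted p = 0.207). A second probe set of Sesn2 did not pass either (0.35, adjusted p = 0.106). For Shmt2 the other 2 probe sets did not pass (-0.01, adjusted p = 0.931, and 0.06, adjusted p = 0.698). With the mean of all its probe sets Shmt2 did not pass either (0.11, adjusted p = 0.263 in limma). Psat1, the next enzyme of the serine pathway, did not pass (0.06, adjusted p = 0.894), nor did Ppp1r15a (GADD34), which brings a phosphatase to eIF2α (0.27, adjusted p = 0.0619). The call for Sesn2 was lost when any 1 of 6 arrays was left out (fed mouse346, mouse347 and mouse349 and fasted mouse339, mouse340 and mouse344; adjusted p = 0.0550 to 0.106), and so was that for Shmt2, with another set of 6 (fed mouse346, mouse349 and mouse350 and fasted mouse340, mouse343 and mouse344; adjusted p = 0.0518 to 0.0962). Ppp1r15a passed without fasted mouse343 (adjusted p = 0.0197). With all mice kept, it passed in limma without the lowest 40 percent of probe sets (adjusted p = 0.0472). It did so too with the mean of all probe sets of a gene (adjusted p = 0.0466) and with adjustment over genes (adjusted p = 0.0497).

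All 10 listed ATF4 targets have a promoter window. CARE is held by 3 of them, Asns, Chac1 and Trib3, against 3.97% of all windows, and none holds ERSE, ERSE-II or UPRE. These 3 had the largest rises, while Ddit3, Sesn2, Phgdh and Shmt2 rose without CARE in the window. A link between the match and the rise was not tested. The match lies at -23 to -16 in Asns, on the opposite strand at -193 to -186 in Chac1, and on the opposite strand after the start, at 15 to 22, in Trib3. Their windows are shown with the match in capitals.
Asns (chr6:7693160-7693459, minus strand): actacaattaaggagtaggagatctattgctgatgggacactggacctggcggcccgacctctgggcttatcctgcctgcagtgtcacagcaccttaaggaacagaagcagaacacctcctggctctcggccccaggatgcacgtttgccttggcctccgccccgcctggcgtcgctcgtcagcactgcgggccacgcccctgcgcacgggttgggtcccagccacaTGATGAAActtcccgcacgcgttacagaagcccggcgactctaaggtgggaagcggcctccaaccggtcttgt
Chac1 (chr2:119350992-119351291, plus strand): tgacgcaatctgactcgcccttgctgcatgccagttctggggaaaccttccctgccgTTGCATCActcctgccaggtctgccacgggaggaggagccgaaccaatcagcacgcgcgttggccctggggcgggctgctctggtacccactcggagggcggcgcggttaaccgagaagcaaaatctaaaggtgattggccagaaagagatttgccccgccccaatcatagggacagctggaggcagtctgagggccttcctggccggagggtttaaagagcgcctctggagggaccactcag
Trib3 (chr2:152344011-152344310, minus strand): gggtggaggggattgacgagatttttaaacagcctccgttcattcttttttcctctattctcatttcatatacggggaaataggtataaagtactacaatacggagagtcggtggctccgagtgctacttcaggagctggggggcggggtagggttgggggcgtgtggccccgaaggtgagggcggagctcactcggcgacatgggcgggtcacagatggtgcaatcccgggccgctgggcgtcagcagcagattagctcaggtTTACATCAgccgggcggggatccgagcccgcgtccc

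None of the transcripts of the sensors and factors passed. Atf4 was at 9.20, 9.24, 9.39, 9.32 and 9.36 in the fed mice and 9.24, 9.52, 9.87 and 9.78 in the fasted mice. Fasted mouse339 lay within the fed range and the other 3 fasted mice above it (0.30, adjusted p = 0.0889), and without mouse339 the gene passed (0.42, adjusted p = 0.00664). With all mice kept, Atf4 passed in 1 limma fit to all 19 arrays (adjusted p = 0.0485). It also passed with the mean of all its probe sets (0.24, adjusted p = 0.0127 in limma). The mean of 6 liver markers was 8.13 in mouse339 and 5.94 to 6.49 in the other young fasted mice, and that of 7 brown adipocyte markers 7.52 against 5.02 to 7.10. The part of these cells in its Atf4 level was not tested. Xbp1 was at 11.15, 11.17, 11.30, 11.10 and 11.14 in the fed mice and 11.01, 11.21, 10.96 and 11.31 in the fasted mice. The fasted mice lay on both sides of the fed mice (-0.05, adjusted p = 0.749). Atf6 (-0.03, adjusted p = 0.793), Eif2ak3 (PERK; -0.13, adjusted p = 0.326) and Ern1 (IRE1; 0.04, adjusted p = 0.734) did not pass either. These values are RNA levels, and the splicing of Xbp1, the phosphorylation of eIF2α and the translation of Atf4 were not measured here.

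**Figure D2:**
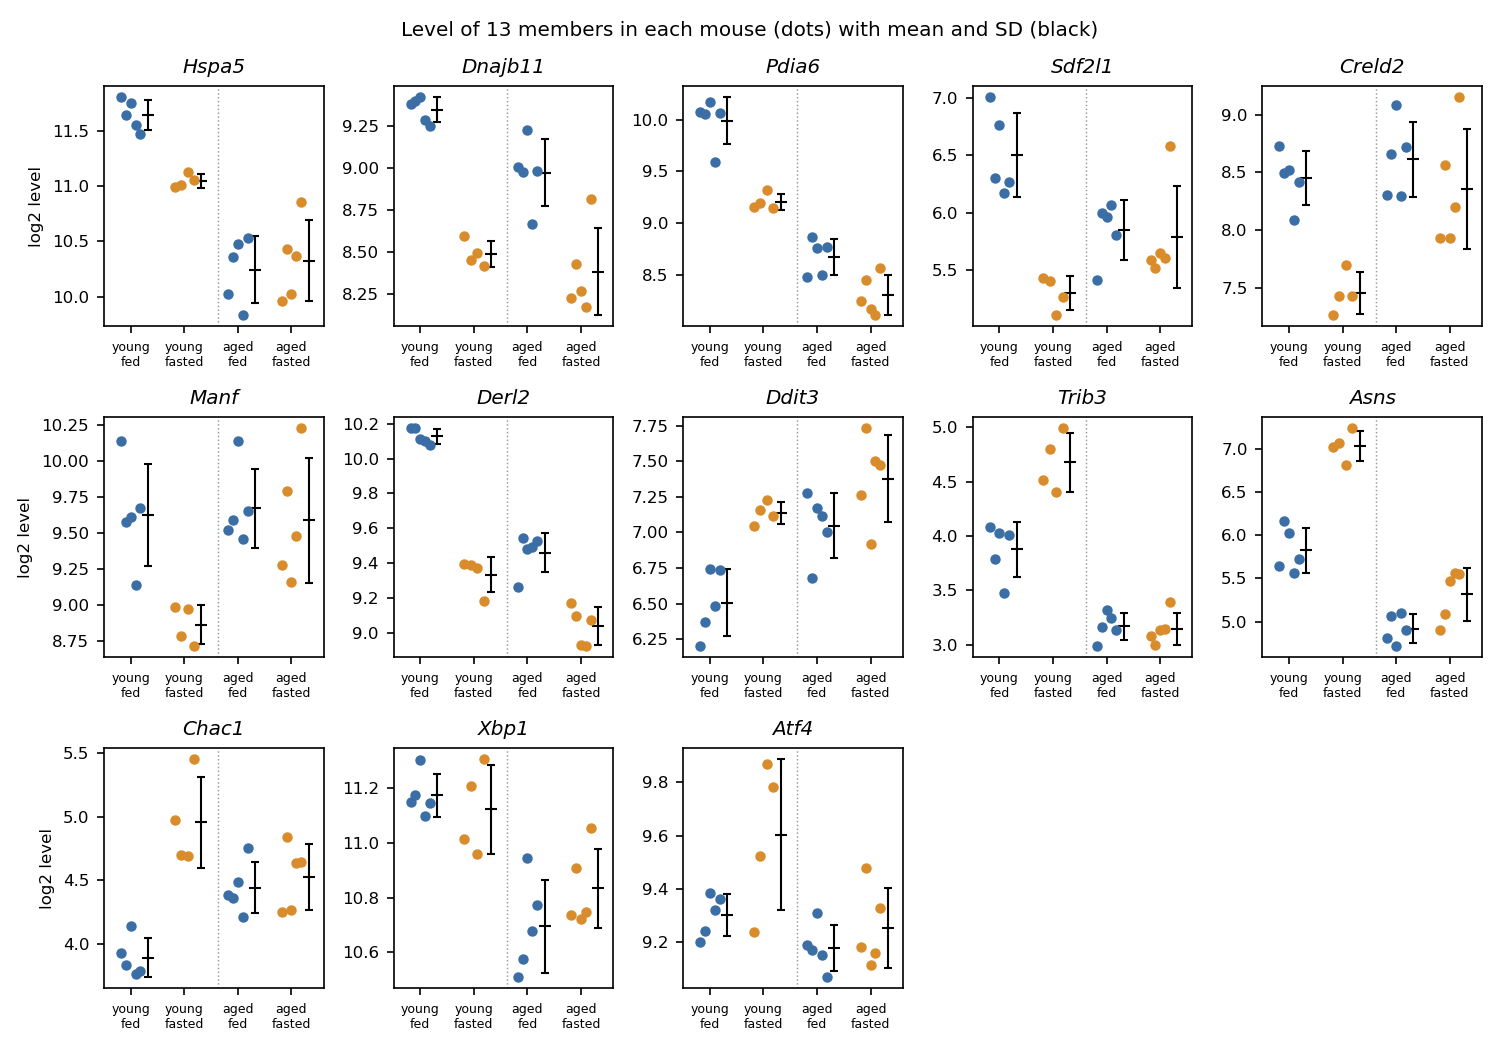
Log2 level of 13 members in each of the 19 mice (dots), with mean and SD of each group in black and blue for ad libitum fed, orange for fasted mice. The panels have separate scales. In the young mice all but Xbp1 and Atf4 separate by diet, whereas in the aged mice the Derl2 values alone of these 13 do not overlap.

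To set the arms against each other within each mouse, the level of each member was taken relative to the mean of the ad libitum fed mice of that age, and the median over the members of an arm was formed. For ER folding these medians were -0.54, -0.61, -0.55 and -0.49 in the young fasted mice and -0.07 to 0.09 in the fed mice. For the ATF4 targets they were 0.39, 0.59, 0.31 and 0.58 in the fasted and -0.13 to 0.14 in the fed mice. In each young fasted mouse at least 12 of the 14 ER folding members lay below and at least 8 of the 9 ATF4 targets above the mean of the fed mice. In the young fed mice these counts were 2 to 12 and 1 to 8. Fed mouse349 had 12 ER folding members below but 1 ATF4 target above. Fed mouse348 had 8 ATF4 targets above but 5 ER folding members below, so either count alone was also reached by a fed mouse. The ATF4 median exceeded the ER folding median by 0.86 to 1.20 in the young fasted and by at most 0.13 in the young fed mice. In the aged mice the same gap was 0.21 to 0.37 in 4 fasted mice and -0.07 in mouse42, against -0.12 to 0.27 in the fed mice, so the groups overlapped. No test was run on these medians, since the genes were chosen with earlier results known.

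**Figure D3:**
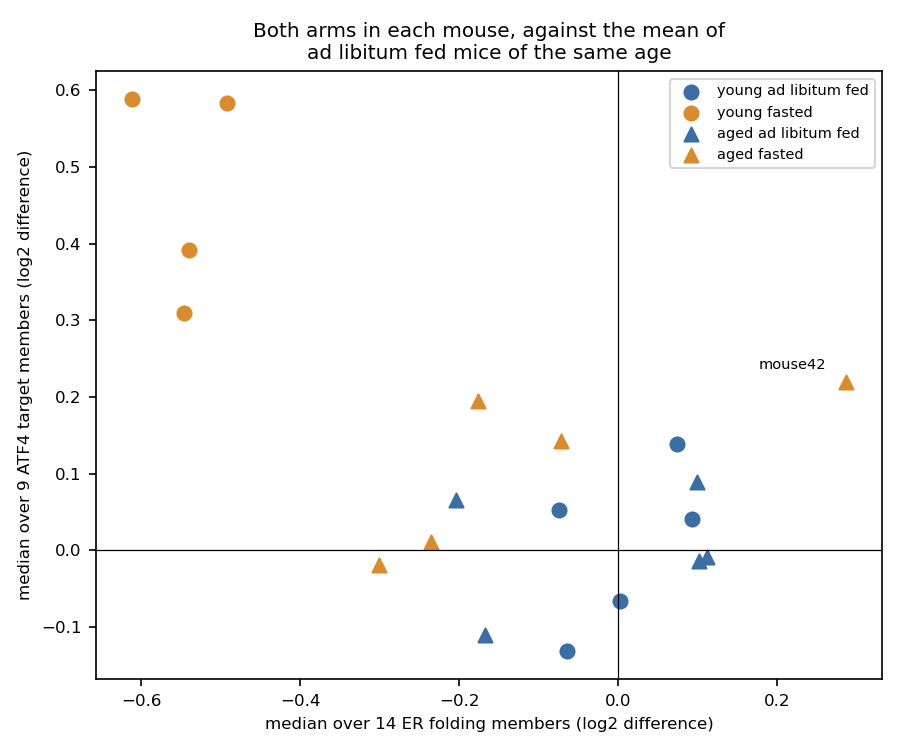
Median log2 difference from the ad libitum fed mice of the same age over the 14 ER folding members (horizontal) and over the 9 ATF4 targets (vertical), 1 symbol per mouse (circles young, triangles aged, blue fed, orange fasted). The 4 young fasted mice lie at the upper left, at -0.61 to -0.49 and 0.31 to 0.59, while the aged fasted mice lie near the fed mice.

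In aged kidneys few members passed, in shares near those of all genes. Of the 35, 3 fell (Dnajb11, Derl1 and Derl2) and 1 rose (Dnajb9), against 4.84% and 4.32% of all genes. With a fold of at least 1.5 in addition 1 member fell (Dnajb11) and none rose, against 1.28% and 1.39% of all genes. The groups did not overlap for 3 members (Dnajc3, Derl1 and Derl2), against 10.2% of all genes. Dnajb11, Derl1 and Derl2 were thus the members that fell in both ages, and no member rose in both or passed in opposite directions. The median log2 fold change was -0.09 for ER folding, -0.11 for ERAD, 0.09 for the ATF4 targets and 0.08 for the sensors and factors, with -0.01 for all genes. None of the 9 ATF4 targets passed in limma, with 3 at an unadjusted p below 0.05.

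Dnajb11 was at 9.01, 8.98, 9.23, 8.67 and 8.98 in the fed mice and 8.23, 8.43, 8.27, 8.17 and 8.82 in the fasted mice. Fasted mouse42 lay within the fed range and the other 4 below it (1.505-fold lower; -0.59 ± 0.128, SE; adjusted p = 0.0161). Derl2 was at 9.26, 9.54, 9.48, 9.49 and 9.53 in the fed mice and 9.17, 9.09, 8.93, 8.92 and 9.07 in the fasted mice. All fasted mice lay below all fed mice (-0.42 ± 0.0775 (SE; adjusted p = 0.00594)). Its second probe set did not pass (-0.03, adjusted p = 0.913). Derl1 fell by a like amount as in the young mice (-0.31, adjusted p = 0.0371), but with any 1 of 7 arrays left out (fed mouse34, mouse36 and mouse40 and fasted mouse38, mouse39, mouse41 and mouse42) its adjusted p was 0.0538 to 0.0966. Dnajb9, at 8.57 to 8.98 in fed and 8.98 to 9.44 in fasted mice, rose (0.44, adjusted p = 0.0220), a call lost without fed mouse36 or fasted mouse38 or mouse41 (adjusted p = 0.0542 to 0.0625). For Edem1 the brightest probe set did not pass (-0.11, adjusted p = 0.504) and a second one fell (-0.45, adjusted p = 0.00245).

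The ER chaperones that fell in the young mice overlapped between the diets in the aged mice. Hspa5 was at 10.02, 10.36, 10.48, 9.83 and 10.53 in the fed mice and 9.96, 10.43, 10.02, 10.37 and 10.86 in the fasted mice (0.08, adjusted p = 0.869). Sdf2l1 was at 5.41, 6.00, 5.96, 6.06 and 5.80 in the fed mice and 5.59, 5.51, 5.65, 5.60 and 6.58 in the fasted mice (-0.06, adjusted p = 0.916). Creld2 was at 8.30, 8.66, 9.08, 8.30 and 8.72 in the fed mice and 7.93, 8.56, 7.93, 8.20 and 9.15 in the fasted mice (-0.26, adjusted p = 0.620). In all of these fasted mouse42 was the highest of its group. The same mouse was highest for Manf, at 9.52, 9.59, 10.14, 9.45 and 9.65 in the fed mice and 9.27, 9.79, 9.16, 9.48 and 10.23 in the fasted mice (-0.08, adjusted p = 0.878). Pdia6 was at 8.47, 8.86, 8.75, 8.50 and 8.77 in the fed mice and 8.25, 8.44, 8.17, 8.11 and 8.57 in the fasted mice (-0.36, adjusted p = 0.0663). The remaining ER folding members lay between -0.32 (Calr) and 0.23 (Dnajc3), and the remaining ERAD members between -0.24 (Sel1l) and 0.31 (Derl3).

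Mouse42 was the highest of the 5 aged fasted mice for 13 of the 14 ER folding members, 5 of the 7 ERAD members, 4 of the 5 sensors and factors and 3 of the 9 ATF4 targets. Derl3, a derlin typical of secretory cells, was at 6.34 there and at 4.71 to 5.10 in the other fasted mice. Without mouse42, 3 ER folding members fell in place of 1 (Dnajb11, Pdia3 with adjusted p = 0.0332 and Pdia6 with adjusted p = 0.0347), and the median of the group was -0.25 in place of -0.09. Without fasted mouse33 that median was -0.02, and the median of the ATF4 targets 0.16 in place of 0.09. Without fed mouse40, 2 fell (Pdia6 passed with adjusted p = 0.0481). The mean level of 6 B and plasma cell markers was 5.16 in mouse42, 4.72 to 5.13 in the other aged fasted mice and 4.88 to 5.28 in the aged fed mice, with the plasma cell gene Jchain at 11.86 in mouse42 and 10.85 to 11.77 in the others. The mean of 8 markers of pancreatic acinar cells was 3.70 in mouse42, within the range of its group (3.64 to 3.88). Of these markers Cela1 was at 8.11 in mouse42 and the others were at 2.57 to 3.50. The part of other cell types in the levels of this mouse was not tested.

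Among the ATF4 targets of the aged mice, Asns was at 4.81, 5.07, 4.71, 5.10 and 4.90 in the fed mice and 4.90, 5.09, 5.47, 5.57 and 5.55 in the fasted mice. Fasted mouse39, mouse41 and mouse42 lay above all fed mice and the other 2 within the fed range (0.40, adjusted p = 0.113), and without fasted mouse33 the gene passed (0.50, adjusted p = 0.0234). The mean level of 6 liver markers was 10.2 in mouse33 and 4.91 to 5.49 in the other aged fasted mice. The part of liver transcripts in its values was not tested. Ddit3 was at 7.28, 6.68, 7.17, 7.11 and 7.0 in the fed mice and 7.26, 7.73, 6.92, 7.5 and 7.48 in the fasted mice (0.33, adjusted p = 0.248). Chac1 was at 4.39, 4.36, 4.48, 4.21 and 4.76 in the fed mice and 4.25, 4.84, 4.27, 4.64 and 4.64 in the fasted mice (0.09, adjusted p = 0.797). These groups overlapped. Trib3 was at 2.98, 3.16, 3.32, 3.24 and 3.13 in the fed mice and 3.08, 2.99, 3.13, 3.14 and 3.39 in the fasted mice (-0.02, adjusted p = 0.936), below the array medians in every aged mouse. The other ATF4 targets lay between -0.25 (Phgdh, adjusted p = 0.106) and 0.21 (Sesn2).

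Among the sensors and factors of the aged mice, Xbp1 was at 10.51, 10.57, 10.94, 10.68 and 10.77 in the fed mice and 10.73, 10.91, 10.72, 10.75 and 11.05 in the fasted mice (0.14, adjusted p = 0.502). Atf4 was at 9.19, 9.17, 9.31, 9.15 and 9.07 in the fed mice and 9.18, 9.48, 9.11, 9.16 and 9.33 in the fasted mice (0.07, adjusted p = 0.706). Both overlapped between the diets, and Atf6, Eif2ak3 and Ern1 lay between -0.05 and 0.17.

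The fasting effect itself was then compared between the ages as the aged minus the young log2 fold change, in a fit to all 19 arrays. It differed for 6 members, with 2 positive and 4 negative differences, against 1.55% and 0.895% of all genes. For Phgdh it was -0.63 ± 0.112 (SE; adjusted p = 0.00478), from 0.38 in young to -0.25 in aged kidneys. Phgdh was at 5.42 to 5.65 in young fed and 5.78 to 6.05 in young fasted mice, without overlap, and at 5.44 to 5.86 in aged fed and 5.25 to 5.45 in aged fasted mice. Its second, dimmer probe set did not pass in young (0.27, adjusted p = 0.207) or aged kidneys (-0.26, adjusted p = 0.308). The difference was negative as well for Chac1 (-0.98, adjusted p = 0.0164), Trib3 (-0.82, adjusted p = 0.0164) and Asns (-0.81, adjusted p = 0.0374). Trib3 lay below the array medians in every aged mouse, where a change may be missed. The difference was positive for Sdf2l1 (1.15, adjusted p = 0.0334) and Edem1 (0.40, adjusted p = 0.0482). For Edem1 this holds at the brightest probe set only, since the second fell in both ages (-0.72 in young and -0.45 in aged kidneys), and the difference at that probe set was not tested.

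With the ordinary test without moderation, 1 of the 6 differences passed (Phgdh, adjusted p = 0.0124), and the other 5 had adjusted p values of 0.0502 to 0.0932. In limma the calls for Phgdh, Chac1 and Trib3 held when any 1 of the 19 arrays was left out. That for Sdf2l1 was lost when any 1 of 6 was left out (young fed mouse346 and mouse348, young fasted mouse340, mouse343 and mouse344, aged fed mouse34; adjusted p = 0.0551 to 0.0692). That for Asns was lost with any 1 of 11 left out (young fed mouse346, mouse349 and mouse350, young fasted mouse339, mouse340 and mouse344, aged fed mouse34, mouse36, mouse40 and mouse43, aged fasted mouse38; adjusted p = 0.0502 to 0.0892). That for Edem1 was lost with any 1 of 15 left out, that is any array other than young fed mouse349, young fasted mouse344, aged fed mouse36 and aged fasted mouse33 (adjusted p = 0.0532 to 0.113). Of the ER folding members, 14 of 14 had a positive difference (median 0.39), and of the ATF4 targets 8 of 9 had a negative one (median -0.32). Most did not pass, among them Hspa5 (0.68, adjusted p = 0.112), Creld2 (0.74, adjusted p = 0.222) and Derl2 (0.37, adjusted p = 0.0547). The median difference over all genes was 0.0007. The members were measured in the same mice, so their signs are not independent. Aged fasted mouse42 alone was the highest of its group for 13 of the 14 ER folding members.

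Other genes of the secretory pathway also fell more often than they rose in young kidneys. Over 4 further lists with 84 measured genes (import and glycosylation, other folding genes, other ERAD genes, ER export), 29 fell and 4 rose, against 12.5% and 10.7% of all genes, and in aged kidneys 12 fell and 2 rose, against 4.84% and 4.32%. Import and glycosylation had 17 of 28 that fell and 1 that rose in young kidneys. The largest falls were those of Ostc, a subunit of the oligosaccharyltransferase (-0.72, adjusted p = 0.000140), and Sec61b, of the translocon (-0.62, adjusted p = 0.000139), while Sec63, which works beside the translocon, rose (0.48, adjusted p = 0.00138). In aged kidneys 6 fell and 1 rose, led by Rpn1 (-0.41, adjusted p = 0.000928), another subunit of the transferase, Sec61b (-0.36, adjusted p = 0.0213) and Sec63 (0.46, adjusted p = 0.0167). Rpn1 also fell in young (-0.55, adjusted p = 0.000548) and Ostc in aged kidneys (-0.32, adjusted p = 0.0404). Of 19 other folding genes, 5 fell in young, led by the isomerase Pdia5 (-0.49, adjusted p = 0.00593) and Hspa13 (-0.34, adjusted p = 0.00130), and 2 fell in aged kidneys, Pdia5 (-0.44, adjusted p = 0.0131) and Erp44 (-0.33, adjusted p = 0.0402). Erp44 was also among the 5 that fell in young kidneys (-0.34, adjusted p = 0.00201). Of 18 other ERAD genes, 4 fell in young kidneys, led by the ubiquitin ligase Rnf5 (-0.34, adjusted p = 0.0169) and the mannosidase Edem3 (-0.30, adjusted p = 0.00405). In aged kidneys Edem2 (-0.31, adjusted p = 0.00857) and Rnf5 (-0.29, adjusted p = 0.0327) fell and Ufd1 rose (0.34, adjusted p = 0.0146). Edem2 was also among the 4 that fell in young kidneys (-0.25, adjusted p = 0.0401).

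Of 19 genes of ER export, 3 fell and 3 rose in young kidneys, shares near those of all genes. The largest falls were those of the retrieval receptor Kdelr3 (-0.66, adjusted p = 0.000142) and the coat protein Sec23b (-0.57, adjusted p = 0.000988), and the largest rises those of Sec16b (0.34, adjusted p = 0.0225) and Mcfd2 (0.28, adjusted p = 0.00260). In aged kidneys Sec13 (-0.43, adjusted p = 0.00222) and Sec23b (-0.40, adjusted p = 0.0147), both of the vesicle coat, fell and none rose. Of 13 other sensor genes, 3 fell in young kidneys, against 12.5% of all genes. They were led by Atf6b, the paralog of Atf6 (-0.50, adjusted p = 0.00351), and Mbtps1, the protease that cuts ATF6 (-0.32, adjusted p = 0.00848). Both fell in aged kidneys as well (Atf6b -0.42, adjusted p = 0.0197; Mbtps1 -0.41, adjusted p = 0.00397), where Traf2 rose (0.32, adjusted p = 0.0167). Of 7 genes around eIF2α (kinases, a phosphatase subunit, exchange factor subunits and the adaptor Nck1), Eif2ak4 (GCN2, the sensor of amino acid shortage) rose (0.26, adjusted p = 0.0396) and Nck1 fell (-0.42, adjusted p = 0.0206) in young kidneys, and none passed in aged kidneys, with 3 at an unadjusted p below 0.05. In young kidneys 1 rise and 1 fall among 7 genes are shares near those of all genes (10.7% and 12.5%).

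Further ATF4-related genes rose in young kidneys. Over 4 lists with 49 measured genes, 19 rose and 2 fell in young kidneys, against 10.7% and 12.5% of all genes. In aged kidneys 4 rose and 4 fell, against 4.32% and 4.84% of all genes. Of 17 partners and other targets of ATF4, 9 rose and none fell in young kidneys. Atf5, a transcription factor translated under the same control as ATF4, rose most (1.20, adjusted p = 4.41e-05), followed by Eif4ebp1, a repressor of cap-dependent translation (1.09, adjusted p = 6.91e-06). In aged kidneys the transcription factors Cebpb (0.72, adjusted p = 0.00461) and Atf3 (0.59, adjusted p = 0.0123) rose. Cebpb was also among those that rose in young kidneys (0.80, adjusted p = 0.00134). Of 11 genes of amino acid and folate metabolism, 4 rose and 1 fell in young kidneys, with the transaminase Gpt2 (0.96, adjusted p = 0.000182) and the mitochondrial carboxykinase Pck2 (0.76, adjusted p = 0.00120) highest and Cbs, of the transsulfuration pathway, lower (-0.35, adjusted p = 0.0103). In aged kidneys Gpt2 (0.71, adjusted p = 0.00594) and Shmt1 (0.45, adjusted p = 0.0182) rose and Cbs fell (-0.76, adjusted p = 0.000562). Shmt1 rose in young kidneys as well (0.31, adjusted p = 0.0317).

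Of 12 genes for tRNA charging and export (11 aminoacyl-tRNA synthetases and the exportin Xpot), 4 rose and 1 fell in young kidneys, with Mars (0.42, adjusted p = 0.00778) and Gars (0.41, adjusted p = 0.0103) highest and Yars lower (-0.25, adjusted p = 0.0271). In aged kidneys none rose and 3 fell, the synthetases Aars (-0.42, adjusted p = 0.00110) and Yars (-0.34, adjusted p = 0.0258) and the exportin Xpot. Among all genes, 10.7% rose and 12.5% fell in young and 4.32% and 4.84% in aged kidneys. Of 9 amino acid transporters, Slc3a2, the heavy chain of several of them (0.60, adjusted p = 0.0196), and the glutamine carrier Slc1a5 (0.37, adjusted p = 0.00443) rose in young kidneys and none passed in aged kidneys, with 1 at an unadjusted p below 0.05. The difference of the fasting effects, aged minus young, was negative for Atf5 (-0.92, adjusted p = 0.00344), Eif4ebp1 (-0.76, adjusted p = 0.00735), Pck2 (-0.66, adjusted p = 0.0296), Slc3a2 (-0.77, adjusted p = 0.0313) and Gars (-0.45, adjusted p = 0.0447), and no gene of the 4 secretory lists differed between the ages in limma, with 15 at an unadjusted p below 0.05. It was positive for Nck1 (0.62, adjusted p = 0.0257) and Traf2 (0.53, adjusted p = 0.0188).

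Of the 25 calls named as the largest rises and falls of these lists in young kidneys, 20 held without any 1 array. The call was lost for Eif2ak4 without any 1 array other than fed mouse348 and fasted mouse339 (adjusted p up to 0.112), and for Yars without fed mouse346, mouse348 or mouse350 or fasted mouse340 or mouse343 (up to 0.0775). It was lost for Sec16b without fed mouse347 or fasted mouse339, mouse340 or mouse344 (up to 0.0582), for Nck1 without fed mouse346 or fasted mouse340 or mouse344 (up to 0.0648), and for Slc3a2 without fasted mouse344 (adjusted p = 0.0619). Of the 20 so named in aged kidneys, 14 held, while that for Erp44 was lost without any 1 array other than fed mouse40 and fasted mouse42 (adjusted p up to 0.109). That for Rnf5 was lost without fed mouse34 or mouse37 or any 1 fasted mouse other than mouse33 (up to 0.0915), and that for Yars without fed mouse34, mouse37 or mouse43 or fasted mouse38 or mouse39 (up to 0.0622). Those for Sec61b without fed mouse36 or fasted mouse38, mouse39 or mouse41 (up to 0.0611), for Atf6b without fed mouse34 or mouse43 (up to 0.0507) and for Sec63 without fasted mouse41 (adjusted p = 0.0519) were lost as well.

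**Figure D4:**
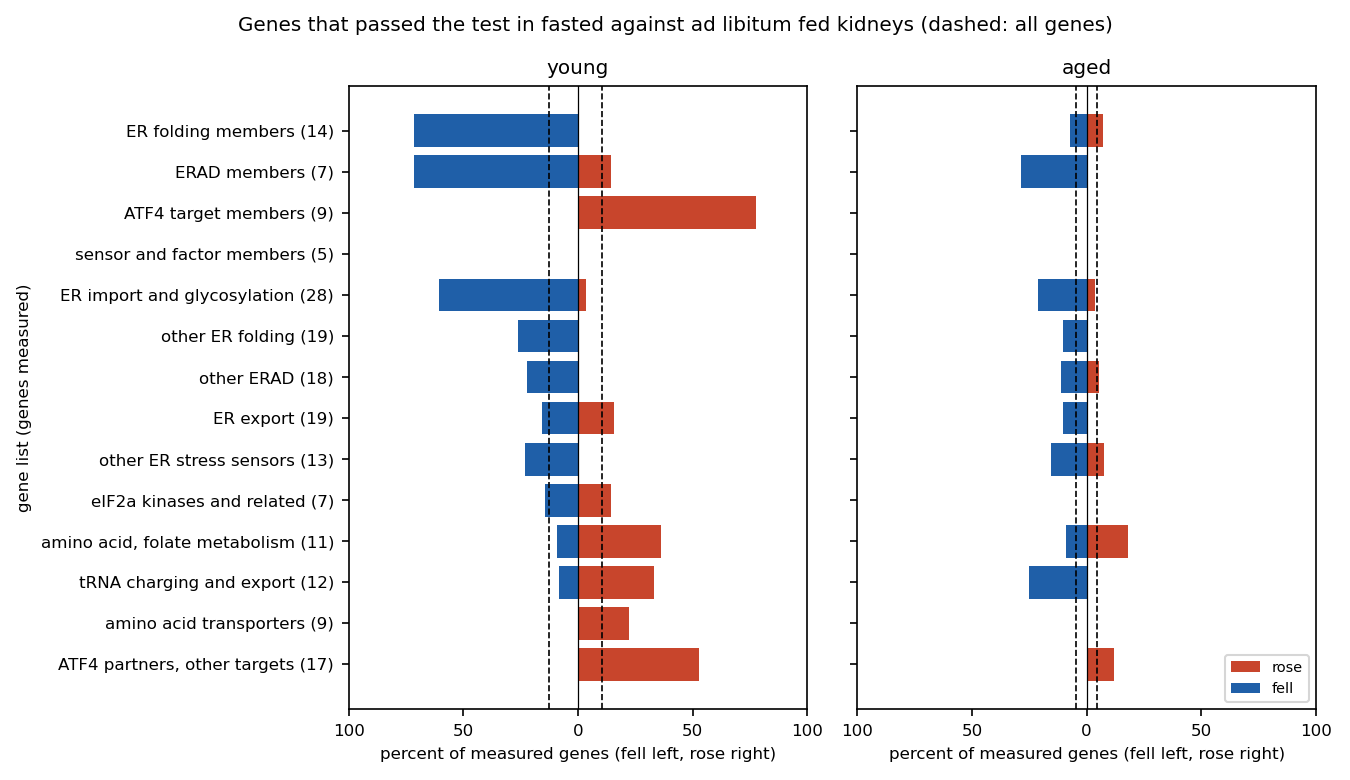
Percent of the measured genes of each list that fell (blue, to the left) or rose (red, to the right) in fasted against ad libitum fed kidneys at an adjusted p of at most 0.05, young on the left and aged on the right. Dashed lines mark the share of all 17097 genes (12.5% fell and 10.7% rose in young, 4.84% and 4.32% in aged kidneys), and in young kidneys the bars of the ER folding and ERAD members (falls) and of the ATF4 targets (rises) extend furthest past them.

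Macrophage markers moved with diet in the young mice. Of 7 macrophage markers 4 fell (Adgre1, Csf1r, C1qa and C1qb) and 1 rose (Cd14), with a mean level of the list of 5.66 to 5.85 in young fasted and 6.05 to 6.42 in young fed mice. In aged mice it was 5.57 to 6.25 in fasted and 5.60 to 6.33 in fed mice. None of the 6 B and plasma cell markers passed in either age, with 0 at an unadjusted p below 0.05, and of the 8 acinar markers Cela1 fell in both ages. Cela1 was at 7.96 to 10.35 over all arrays. The other 7 acinar markers were at 2.50 to 4.07 and did not pass in either age, so Cela1 weighs most in their mean. Brown adipocyte markers moved as well, and 3 young fasted mice stood above the fed mice. Of 7 such markers Cidea (2.84, adjusted p = 0.0245) and Cox8b (1.77, adjusted p = 0.0464) rose and Cox7a1 fell (-0.77, adjusted p = 0.000665) in young kidneys, and Cox7a1 fell in aged kidneys (-0.85, adjusted p = 0.00154). The mean of the list was 7.52, 6.57, 7.10 and 5.02 in fasted mouse339, mouse340, mouse343 and mouse344 and 5.39 to 5.89 in the young fed mice, and it was 4.76 to 7.14 in aged fasted and 5.18 to 7.32 in aged fed mice. Mouse344, with the lowest mean, had an ER folding median of -0.49 and an ATF4 median of 0.58, beside -0.61 to -0.54 and 0.31 to 0.59 in the other young fasted mice. Of 6 liver markers Apoc3 rose in young kidneys (1.36, adjusted p = 2.00e-06). The part of these cells in the changes of the members was not tested further.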

How the data were processed

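Kidney RNA of 19 male mice was measured on 19 arrays. The log2 values had been made and deposited by the authors as a table of 45141 probe sets, with RMA (background correction, normalization and summary of probes) per the submitters' processing notes and no version given in the sources used here. The array medians fall into 2 sets by age, and the normalization was probably run for each age on its own. The number of arrays limits the precision. The annotation given with the reference files gives 1 symbol for 28898 probe sets, several for 551 and none for 15692. No symbol is named from a probe set with several.

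Linear models were fitted to all probe sets with limma 3.58.1 in R 4.3.3, fasted against ad libitum fed within each age, and the difference of both effects in 1 fit of the 4 groups on all 19 arrays. P values were moderated and adjusted by Benjamini-Hochberg over all 45141 probe sets, two-sided. A member passed at an adjusted p of at most 0.05. Medians and shares of all genes use each gene's brightest single-gene probe set. Every array's value is given for members that passed with a fold of at least 1.5 in either age and for Hspa5, Xbp1, Atf4, Ddit3 and Asns. From each wider list the up to 2 largest rises and falls that passed are named. A gene so named is also given for the other age where it passed there. Other probe sets are named where they rose or fell although the brightest did not pass, and for a few others chosen after their values were seen. The members and lists were chosen with earlier results of these data known. The scripts were tested on simulated data. Promoter windows are from RefSeq and were searched with Python 3.11.15. The alternatives tried were an ordinary test without moderation, a fit to all 19 arrays, a variance trend with a robust fit, array weights, quantile normalization within age, median centring, removal of the lowest 40 percent of probe sets, the mean of all probe sets of a gene, adjustment over genes, a 1.5-fold minimum, and leaving out each array.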

Additional observations from a re-analysis of the deposited data

Results flagged for a closer look

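In 140 groups of member levels (35 members in 4 groups), 12 held an array whose gap to its nearest neighbour was large for the range of its group, where chance gives about 1 in 20. Among these, aged fasted mouse42 was high for Sdf2l1 (6.58, next 5.65), Hyou1 (8.07, next 7.39) and Derl3 (6.34, next 5.10). The other high values were Dnajb9 in young fed mouse346 (9.93), Pdia4 in young fed mouse348 (8.61), Manf in aged fed mouse37 (10.14) and Sel1l in young fasted mouse344 (8.53). The low values were Dnajc3 in aged fed mouse40 (9.63), Pdia6 in young fed mouse349 (9.59), Derl2 in young fasted mouse344 (9.18) and in aged fed mouse34 (9.26), and Psat1 in mouse33 of the aged fasted group (6.12), which also had the highest mean of the liver markers (10.2). Their part in the results was not tested beyond leaving out each array.

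The fasting effect differed between the ages, by a test of the difference itself in limma, for Phgdh (-0.63), Chac1 (-0.98), Trib3 (-0.82), Asns (-0.81), Sdf2l1 (1.15) and Edem1 (0.40), each as aged minus young log2 fold change. With the ordinary test without moderation the difference for Phgdh passed (adjusted p = 0.0124) and the other 5 did not (adjusted p = 0.0502 to 0.0932).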

How the results depend on the processing

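No paired analysis was possible because the replicate numbers are not shared between groups. No member reversed its direction under any alternative in which it passed. With the ordinary test without moderation, 5 members rose in young kidneys (8 with moderation), 0 rose and 1 fell in aged kidneys (0 rose and 0 fell among ER folding), and 0 positive and 1 negative difference between the ages passed. With a fold of at least 1.5 in addition, 4 rose and 7 fell in young kidneys (6 falls in ER folding, 4 rises among ATF4 targets), 0 rose and 1 fell in aged kidneys (0 rises in ER folding), and 1 positive difference passed. With array weights 2 members rose in aged kidneys, 1 of them an ATF4 target (Asns), and 2 ER folding members fell. With 1 fit to all 19 arrays and with quantile normalization within age 5 members fell in aged kidneys, 2 in ER folding and 1 among the ATF4 targets (Phgdh), and quantile normalization left 1 positive difference. With the variance trend and with adjustment over genes 2 ER folding members fell in aged kidneys. Leaving out 1 array gave 0 to 2 members that rose in aged kidneys, 0 to 1 rises and 1 to 3 falls in ER folding, 0 to 1 rises among ATF4 targets, and 0 to 2 positive differences. Of the 23 members that passed in young kidneys, 20 held without any 1 array, of the 4 in aged kidneys 2, and of the 6 differences 3. The median of ER folding in young kidneys stayed between -0.55 and -0.51 and that of the ATF4 targets between 0.34 and 0.52 under all alternatives run for them. In aged kidneys these medians ranged from -0.25 to -0.02 and from 0.03 to 0.16. The ordinary test kept fewer calls in young rises, in aged kidneys and between the ages; the cause was not tested. Effects below those that passed may be missed with 4 or 5 arrays per group.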
